A study of Mus musculus with 7 samples.

Results

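The genes described here are 33 genes of glycolysis and of the response to low oxygen: glucose transporters, the enzymes that carry glucose to lactate, the kinases that hold pyruvate back from the mitochondria, and the hypoxia-inducible factors (HIF) with their regulators and targets. They were chosen by symbol, and all 33 were found among the 23038 genes of the deposited expression table. Smart-seq2, which amplifies full-length cDNA from few cells, had been used to measure RNA in libraries of 150 haematopoietic stem cells (HSCs) each. The cells were sorted from hindlimb marrow of adult C57BL/6 mice as lineage-negative, Sca1+, cKit+, CD150+ and CD48- cells. The 3 control libraries came from Cre-negative animals and the 4 mutant libraries from Mx1-cre; Mettl3fl/fl animals, in which Cre removes Mettl3, the catalytic subunit of the enzyme that places N6-methyladenosine (m6A) on mRNA. Animals of both groups received 5 doses of 10 µg pIpC, which mimics viral RNA and through interferon switches on the Mx1 promoter, and were killed 10 days after the final dose. The Mx1 promoter responds to interferon in many cell types, so deletion was not limited to HSCs. Controls were littermates without Cre, so effects of Cre itself and of Mettl3 loss cannot be told apart. The sources used here do not give the Mettl3 alleles of the controls.

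Glycolysis splits glucose into pyruvate in the cytosol and yields ATP without oxygen, and lactate dehydrogenase turns pyruvate into lactate so that the pathway can go on. HIF is a pair of an oxygen-sensitive alpha subunit and ARNT. With oxygen present, prolyl hydroxylases of the EGLN family mark the alpha subunit for degradation through VHL, and without it HIF binds DNA at a short core sequence and raises glycolytic genes, glucose transporters and pyruvate dehydrogenase kinases. HSCs reside in marrow of low oxygen and are known for reliance on glycolysis and for HIF activity.

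The deposited values are RPKM (read counts scaled to the length of the gene and to the depth of sequencing), 1 value per gene and group, so levels of different genes can be compared per length within a group. Values per library were not used here, hence no spread between animals and no test: each difference below is between 2 group values without a replicate check. Many genes were listed at a small offset, taken here to mean no reads, that for a gene of 1 kb amounted to 0.0414 RPKM in controls against 0.0349 RPKM in mutants, and 14538 genes lay above it in at least 1 group. If the offset is 1 read per library, 1 RPKM on 1 kb corresponds to 24.1 reads per control library and 28.7 reads per mutant library on average. The deleted gene, Mettl3, was listed at 49.8 RPKM in controls against 9.60 RPKM in mutants, or 19.3% of the former. All 10 HSC markers checked were above the offset, among them Ly6a (152 and 167 RPKM, controls first) and Slamf1 (25.9 and 27.1 RPKM), while the lymphoid markers Cd3e, Cd79a and Ms4a1 had no reads in either group. In RNA from sorted cells in bulk, fewer cells of a type and less RNA per cell cannot be told apart.

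The 33 genes had a median difference near 0 between the genotypes, and the genes farthest apart were mostly single paralogs of a step. The log2 values below compare mutant + 1 RPKM with control + 1 RPKM, a pseudocount that understates differences of low genes, and folds of single genes are ratios of the deposited values. Counts of genes 2-fold or 1.5-fold apart are on the pseudocount scale unless stated. The median log2 difference of the 33 was -0.06, against 0.02 over all 14538 genes above the offset. Of the 33, 19 were lower and 14 higher in mutants, where 47.4% and 52.6% of all genes were lower and higher. At least 2-fold apart on the pseudocount scale were 2 higher genes (Hk3 and Pfkfb3) and 1 lower gene (Egln1), where 3.67% of all genes were 2-fold higher and 3.47% 2-fold lower. A difference of at least 1.5-fold was reached by 3 higher genes, with Epas1 in addition, and by 5 lower genes: Egln1, Pdk2, Ldhb, Aldoc and Hk2. These are rules of size and not tests. Over all genes 13.0% were 1.5-fold higher and 10.4% were 1.5-fold lower, beside 9.09% and 15.2% of the 33. Among the 26 members with at least 10 RPKM in 1 group, 16 were lower and the median was -0.10, against 47.2% lower and a median of 0.03 among the 6607 genes at such levels. Of these 26, 1 was 2-fold higher (3.36% of the 6607), none was 2-fold lower (2.47%), 1 was 1.5-fold higher (13.3%) and 3 were 1.5-fold lower (8.58%). The remaining 10 of the 26 were higher, beside 52.8% of genes at such levels.

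**Figure D1:**
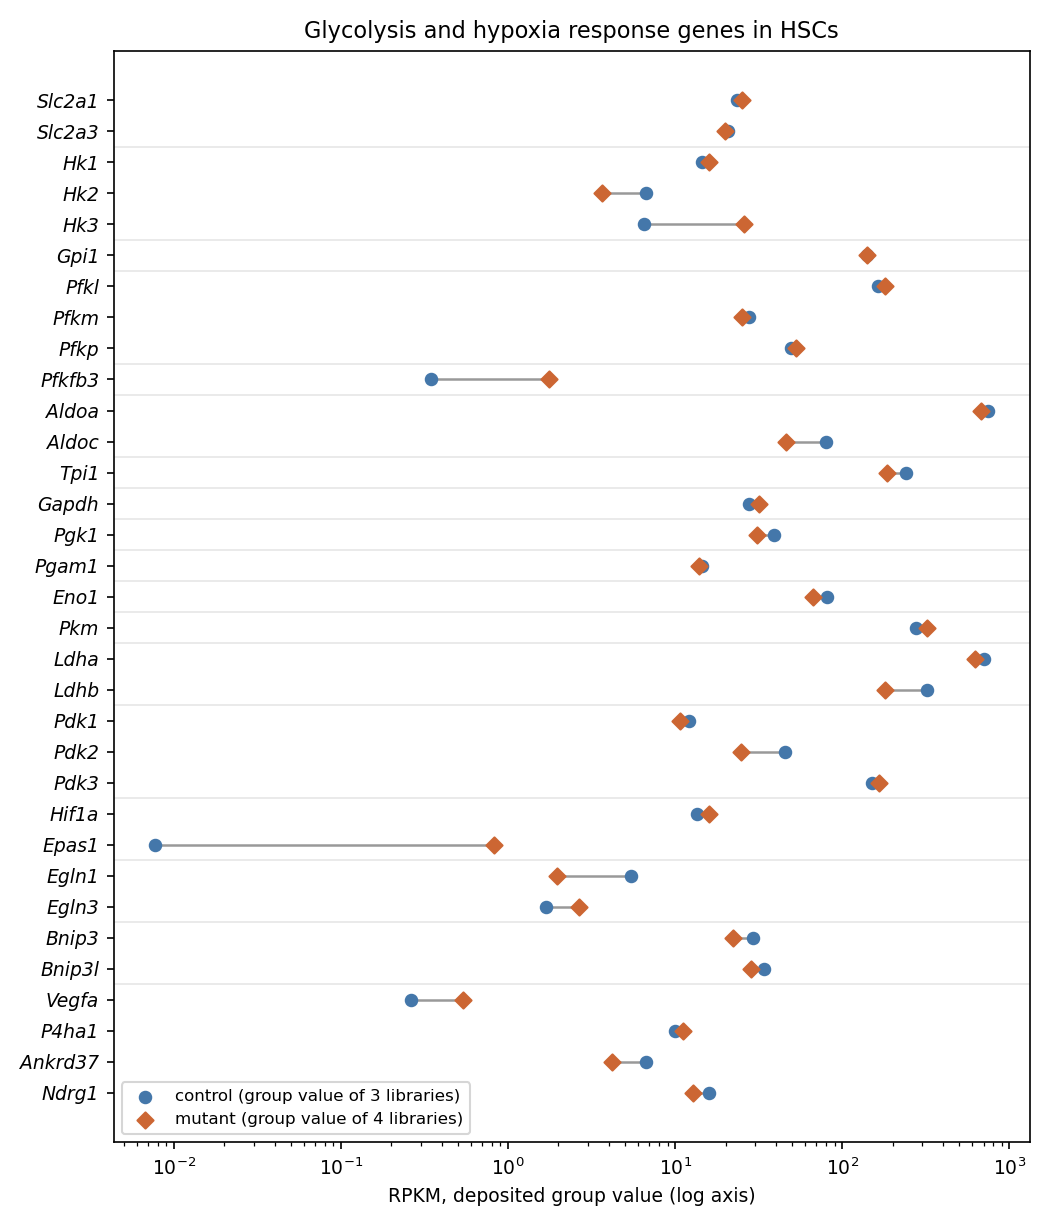
Deposited RPKM of the 33 genes on a log axis, in the order of their roles from glucose transport to HIF targets; circles are controls, diamonds are mutants and grey lines join the 2 values of a gene. Most pairs nearly coincide, and the long lines belong to Hk3 (6.52 and 25.97 RPKM) and to genes of low level such as Epas1 and Pfkfb3.

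Promoters of 4 genes show where the HIF core sequence lies in genes on which the comparisons below turn. They are Hk3 and Egln1, the genes with the highest and the lowest log2 difference of the 33, and the pair Ldha and Ldhb, whose balance differed. Each line gives up to 250 bases before a RefSeq start (GRCm38.p6), without annotated exon, read 5′ to 3′ on the strand of the gene, with capitals for ACGTG or GCGTG on either strand (on the opposite strand they read CACGT and CACGC). The windows are chr13:55021476-55021635 (minus strand), chr8:124949325-124949504 (minus strand), chr7:46845554-46845803 (plus strand, of 2 listed starts the one with more matches, within an intron of a longer transcript) and chr6:142507958-142508207 (minus strand).
Hk3: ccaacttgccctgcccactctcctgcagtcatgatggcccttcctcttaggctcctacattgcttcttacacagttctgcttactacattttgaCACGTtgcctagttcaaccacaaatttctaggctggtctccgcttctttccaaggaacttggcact
Egln1: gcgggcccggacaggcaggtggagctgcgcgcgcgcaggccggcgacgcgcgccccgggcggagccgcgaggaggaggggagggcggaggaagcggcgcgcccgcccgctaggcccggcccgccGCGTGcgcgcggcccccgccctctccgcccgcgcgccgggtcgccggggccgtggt
Ldha: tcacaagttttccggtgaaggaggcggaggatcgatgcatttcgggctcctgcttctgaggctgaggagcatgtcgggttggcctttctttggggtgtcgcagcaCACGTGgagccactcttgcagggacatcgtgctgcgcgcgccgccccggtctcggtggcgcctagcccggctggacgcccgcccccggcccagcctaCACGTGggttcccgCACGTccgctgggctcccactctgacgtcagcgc
Ldhb: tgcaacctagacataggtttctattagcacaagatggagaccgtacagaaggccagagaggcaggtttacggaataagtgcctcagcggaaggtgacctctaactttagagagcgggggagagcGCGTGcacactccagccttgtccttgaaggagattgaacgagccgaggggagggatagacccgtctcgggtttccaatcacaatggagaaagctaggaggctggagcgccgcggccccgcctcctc
The Ldha window held 5 matches of ACGTG, of which 4 come from 2 copies of the palindrome CACGTG, matched once per strand. Hk3 held 1 ACGTG and Ldhb 1 GCGTG. Egln1 held 1 GCGTG in the stretch shown and 1 ACGTG in the rest of its 250 bases, which had 51 CpG dinucleotides. Over all members, 29 of 33 were matched to 44 windows, and 35 windows (79.6%) held either form, against 53.6% of 14427 windows of genes above the offset and 38.6% of all 32851 windows. ACGTG alone was in 50% of member windows and in 21.0% of those of genes above the offset. The list holds known HIF targets among others, and a match is a description of letters and not a binding site. Genes with matches lay on both sides of 0, for example Bnip3 with 2 ACGTG and 3 GCGTG, Pgk1 and Hk2 with 2 ACGTG each, and Hif1a with 3.

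The 2 listed glucose transporters were at similar levels in both groups. Slc2a1, which encodes GLUT1, was at 23.5 RPKM in controls against 25.0 RPKM in mutants, and Slc2a3, which encodes GLUT3, at 20.7 against 19.9 RPKM. Pairs of values below give controls first. Their sum was 44.2 and 45.0 RPKM, and GLUT1 made up 53.2% of it in controls and 55.6% in mutants. Of further genes of the glucose transporter family, Slc2a8 was at 8.47 and 7.26 RPKM, Slc2a9 at 1.58 and 1.13 RPKM, and Slc2a4, the insulin-responsive GLUT4, had no reads. Slc2a6 (0.0186 and 0.669 RPKM) and Slc2a12 (0.0110 and 0.0365 RPKM) were very low and higher in mutants.

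The first enzymatic step held the gene farthest apart of the 33. Hexokinases trap glucose in the cell as glucose 6-phosphate. Hk3 (chromosome 13, 55005985 to 55021475, GRCm38.p6), whose promoter stands above, was at 6.52 RPKM in controls against 25.97 RPKM in mutants. It was 3.99-fold higher, with a log2 difference of 1.84 that 99.2% of genes above the offset did not exceed in size. Hk2, a mitochondria-binding isoform induced by HIF (chromosome 6, 82725025 to 82774454), was 1.81-fold lower, at 6.64 and 3.66 RPKM. The broadly expressed Hk1 was at 14.4 and 15.9 RPKM. Thus the 2 isoforms of lower level, nearly equal in controls, stood apart in mutants: Hk3 made up 23.6% of hexokinase RPKM in controls and 57.0% in mutants, Hk2 24.1% and 8.04%, and Hk1 52.3% and 34.9%. The summed level of the 3 was 27.6 RPKM in controls and 45.5 RPKM in mutants, 1.65-fold higher, and Hk3 was the isoform with most of that difference. Hkdc1, a further hexokinase gene outside the 33, had no reads.

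Hk3 is known as a hexokinase of myeloid cells. Beside its difference, 5 of 6 macrophage markers with reads were higher in mutants, and their summed level was 29.2 RPKM in controls and 112 RPKM in mutants. Nearly all of that was Cd68, at 26.4 and 108 RPKM. Without Cd68 the sum was 2.82 and 4.29 RPKM, and the defining receptor genes Csf1r and Emr1 had no reads in either group. Neutrophil markers summed to 14.6 and 7.24 RPKM, with 2 of 5 with reads higher, Camp at 6.37 and 0.562 RPKM and no reads of Ltf and Ngp in either group. Erythroid markers summed to 37.1 and 63.8 RPKM (4 of 5 with reads higher) and stromal and endothelial markers to 22.2 and 50.2 RPKM (2 of 3), nearly all of it Pecam1. Over all genes above the offset, 52.6% were higher in mutants. The part of such cells in the Hk3 value was not tested.

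For the listed isomerase and phosphofructokinase genes the values of the groups lay close together, while the regulators Pfkfb3 and Pfkfb1 differed. Gpi1, the isomerase that follows hexokinase, was at 141 and 140 RPKM, the closest pair of all 33. Phosphofructokinase, the main point of control of the pathway, was carried by Pfkl, the liver-type subunit, at 164 and 180 RPKM, with Pfkp at 49.3 and 53.1 RPKM and the muscle-type Pfkm at 27.8 and 25.1 RPKM. The mix hardly differed, with Pfkl at 68.0% of the step in controls and 69.8% in mutants. Pfkfb3 makes fructose 2,6-bisphosphate, the strongest activator of phosphofructokinase. It was low in both groups, at 0.345 RPKM in controls against 1.76 RPKM in mutants, a ratio of 5.10 and a log2 difference of 1.04. With the longest annotated transcript as its length, this corresponds to about 39.0 reads per control library and 242 reads per mutant library. Its relatives differed in both directions: Pfkfb1 was at 8.46 and 0.738 RPKM, Pfkfb2 at 1.42 and 2.03 RPKM and Pfkfb4, a HIF target, at 3.73 and 4.06 RPKM. In controls Pfkfb1 thus had the highest level of the 4 bifunctional enzymes, and in mutants Pfkfb4 had.

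From aldolase to lactate dehydrogenase, a grouping made after the values were seen, 8 of 10 genes were lower in mutants, with a median of -0.22. All 10 had at least 10 RPKM, and of the 6607 genes at such levels 47.2% were lower, with a median of 0.03. Of the 1426 genes with at least 100 RPKM in 1 group, a level that 5 of the 10 reached, 54.8% were lower, with a median of -0.03. Aldoa, the aldolase of most tissues, was the highest of the 33 at 746 and 671 RPKM, rank 49 among all genes in either group. Aldoc, the brain-type aldolase (chromosome 11, 78323073 to 78327781), was 1.73-fold lower, at 79.9 and 46.1 RPKM, and its share of aldolase was 9.68% in controls and 6.43% in mutants. Tpi1, which interconverts the triose phosphates, was at 239 and 185 RPKM. The ATP-forming enzyme Pgk1 was at 39.0 and 31.0 RPKM and the enolase Eno1 at 80.5 and 66.8 RPKM. Pkm, the pyruvate kinase, was 1 of the 2 higher genes of this stretch, at 277 and 322 RPKM, and Pgam1, the mutase, was at 14.4 and 13.8 RPKM.

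Gapdh, the other higher gene, was listed at 27.4 and 31.8 RPKM. Tpi1, which precedes it in the pathway, was far higher at 239 and 185 RPKM. Pgk1, which follows it, was at 39.0 and 31.0 RPKM. The longest Gapdh transcript matched 77 other annotated genes, 75 of them pseudogenes, at 95% identity or more over at least 200 bases. Of these, 2 were in the table, with a summed level of 5.99 and 6.57 RPKM. The sources used here do not say how reads shared between such copies were counted, so the level of Gapdh is uncertain. Another 10 members had between 1 and 4 such copies (4 for Pgk1 and Ldha, 3 for Eno1 and Bnip3), and 22 had none, among them Hk2, Hk3, Aldoc, Pdk2 and Egln1.

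Lactate dehydrogenase differed in its make-up. Ldha encodes the subunit that favours formation of lactate, Ldhb the subunit that favours its use. Ldha was at 704 and 624 RPKM, and Ldhb (chromosome 6, 142490249 to 142507957) at 321 and 180 RPKM, 1.78-fold lower. The summed level was 1025 RPKM in controls against 805 RPKM in mutants, and Ldha made up 68.6% of it in controls and 77.6% in mutants. In rank among all genes, Ldha was 53 in controls and 52 in mutants, and Ldhb 223 and 586. Of related genes outside the 33, Ldhc, the testis form, had no reads and Ldhd, the D-lactate enzyme of mitochondria, was at 2.51 and 3.92 RPKM.

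The kinases that switch off pyruvate dehydrogenase also differed unequally. Pdk3 was the main form, at 151 and 167 RPKM. Pdk2 (chromosome 11, 95026258 to 95041371) was 1.85-fold lower, at 45.5 and 24.6 RPKM, and Pdk1, the form best known as a HIF target, was at 12.1 and 10.7 RPKM. Hence Pdk3 made up 72.4% of the 3 in controls and 82.5% in mutants, while their sum was 209 and 202 RPKM. Pdk4, a form induced by fasting, was at 0.0874 and 0.269 RPKM.

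**Figure D2:**
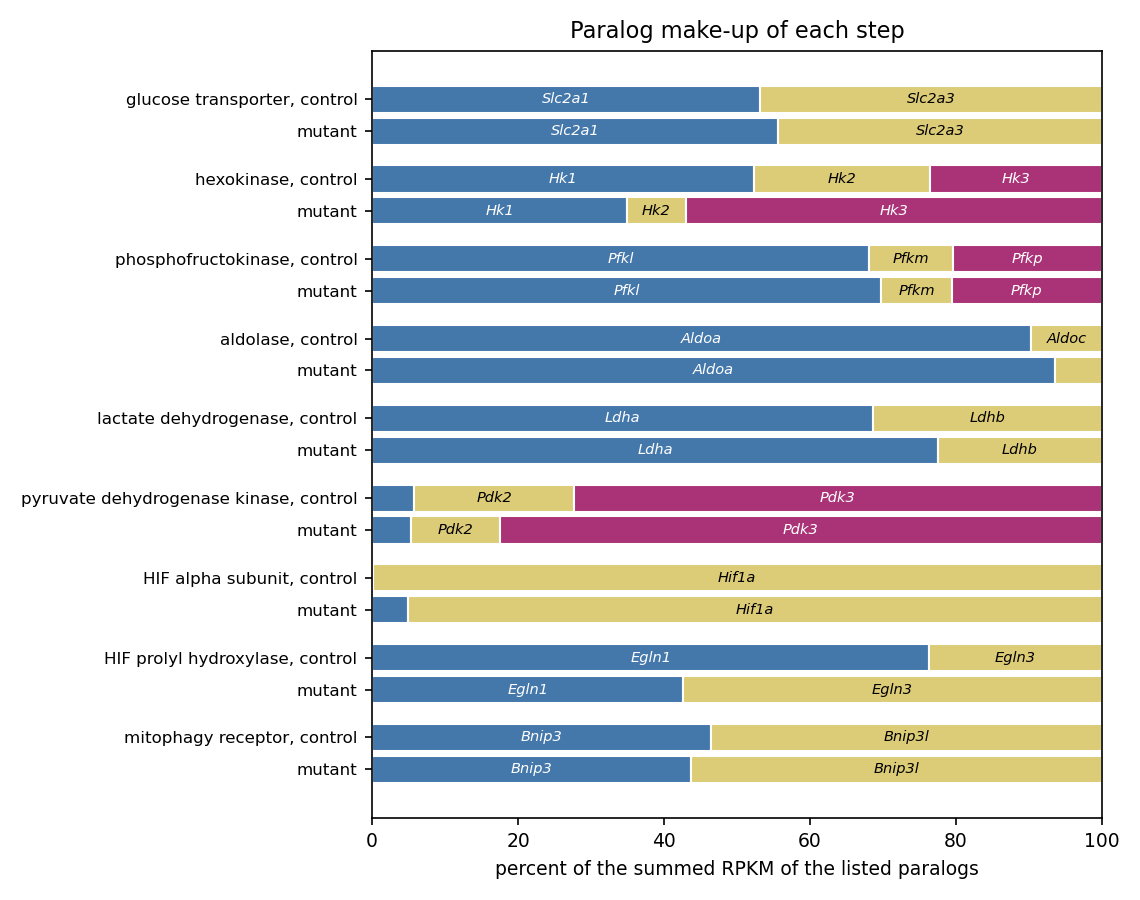
Share of each listed paralog in the summed RPKM of its step, in percent, with controls above mutants in each pair of bars; the unlabelled narrow segments are Aldoc in mutants, Pdk1, and Epas1. The hexokinase and prolyl hydroxylase bars differ most, with Hk3 at 23.6% and 57.0% and Egln1 at 76.3% and 42.6% in controls and mutants.

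On the HIF side, Hif1a was at similar levels in both groups, Epas1 had reads in the mutant value alone, and the oxygen sensor Egln1 was lower in mutants. Hif1a was at 13.5 and 15.9 RPKM, and its partner Arnt, which is not among the 33, at 3.25 and 3.40 RPKM. Epas1, which encodes HIF-2 alpha (chromosome 17, 86753864 to 86833410), had no reads in controls and was at 0.818 RPKM in mutants, so no fold is given. For a gene model of 5352 bases, the length that its control value implies, the mutant value corresponds to an average of 125 reads per library. Hif1a made up 99.9% of the listed alpha subunits in controls and 95.1% in mutants.

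Egln1, the main prolyl hydroxylase (chromosome 8, 124908587 to 124949254), was at 5.42 RPKM in controls against 1.97 RPKM in mutants. It was 2.75-fold lower, with a log2 difference of -1.11, the lowest of the 33. Egln3, the form most strongly induced by hypoxia, was at 1.68 and 2.64 RPKM, a log2 difference of 0.44. Egln1 thus made up 76.3% of these 2 genes in controls and 42.6% in mutants. Egln2, another form outside the 33, had the highest level of the family, at 41.3 and 33.3 RPKM, and Vhl, which recognises the hydroxylated alpha subunit, was at 12.3 and 10.1 RPKM.

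Targets of HIF differed in both directions. Of the receptors that mark mitochondria for autophagy, Bnip3 was at 29.4 and 22.1 RPKM, and Bnip3l at 34.0 and 28.4 RPKM. Ndrg1, a stress-responsive gene, was at 15.9 and 12.8 RPKM, and Ankrd37, a small ankyrin-repeat gene, at 6.67 and 4.19 RPKM, a log2 difference of -0.56 just short of the 1.5-fold limit of 0.58 on that scale (1.59-fold lower by the ratio). P4ha1, a collagen prolyl hydroxylase, was at 9.91 and 11.1 RPKM. Vegfa, the vascular growth factor, was barely expressed, at 0.262 and 0.534 RPKM, or about 20.8 and 51.8 reads per library. Together with Egln1 and Egln3, 5 of these 8 genes were lower and 3 higher, with a median of -0.27. Of all genes above the offset 47.4% were lower and 52.6% higher, with a median of 0.02.

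**Figure D3:**
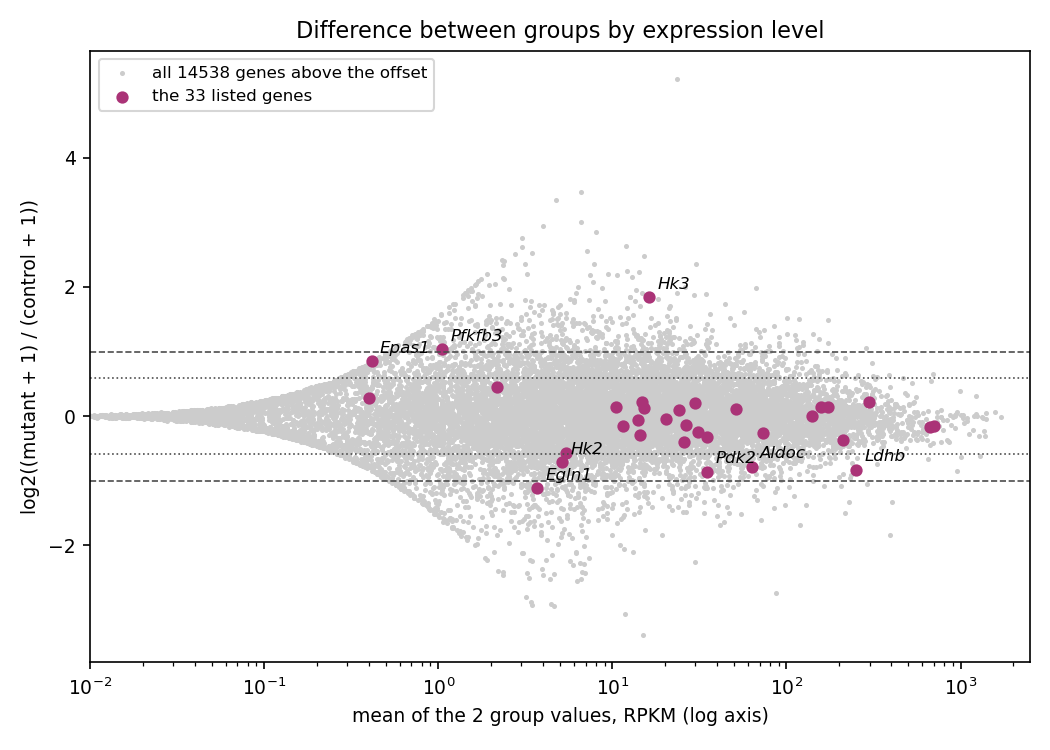
Log2 difference between mutants and controls against the mean of the 2 group values in RPKM (log axis), for all 14538 genes above the offset (grey) and the 33 listed genes (purple, named from 1.5-fold on); dashed lines mark 2-fold and dotted lines 1.5-fold. Most purple points lie inside the dotted lines, and Hk3 at 1.84 stands highest.

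No m6A was measured here. GGACT, a common form of the sequence in which the Mettl3 complex methylates the adenosine, was counted in the longest protein-coding GENCODE transcript of each gene. The median over the 33 was 1.11 per kb, against 1.05 per kb over 12256 genes above the offset. The pair Aldoa and Ldhb, and also Bnip3 and Bnip3l, held none. Pkm held the most per length, at 2.88 per kb, and Hk3 (1.86), Hk2 (1.81), Pdk2 (2.23), Aldoc (1.44) and Egln1 (1.11) lay between. Thus genes farthest apart between the groups included Ldhb without the sequence and others with several copies.

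The neighbouring pathways were described from further lists. Of 20 other genes of glycolysis and gluconeogenesis with reads, 14 were higher and 6 lower, with a median of 0.16. Of all genes 52.6% were higher and 47.4% lower. On the pseudocount scale 1 of the 20 was 2-fold higher and 3 were 2-fold lower, beside 3.67% and 3.47% of all genes. Adpgk, which phosphorylates glucose with ADP, was at 6.11 and 20.1 RPKM, 3.29-fold higher, and Pfkfb1 was 11.5-fold lower. Fbp1, the gluconeogenic bisphosphatase that reverses phosphofructokinase, was at 143 and 54.4 RPKM, 2.62-fold lower, and Eno3, the muscle enolase, at 16.2 and 8.42 RPKM. Fbp1 and Eno3 fall outside the rule for named genes and were chosen after their values were seen.

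Genes of transport and of pyruvate dehydrogenase were higher in 12 of 18 with reads (median 0.21), beside 52.6% of all genes. On the pseudocount scale 6 were 1.5-fold higher and 1 was 1.5-fold lower, beside 13.0% and 10.4% of all genes. By the ratio of the deposited values the first count was 8, beside 3319 of all 14538 genes above the offset. After scaling by the median ratio, on the pseudocount scale, it was 5, beside 1780 of the 14538. Slc16a1, the lactate transporter MCT1, was at 7.18 and 13.4 RPKM, and Pdhx, a structural subunit of pyruvate dehydrogenase, at 33.7 and 53.0 RPKM. Txnip, which restrains glucose uptake, was lower, at 225 and 149 RPKM. In the pentose phosphate pathway, which makes NADPH and ribose, 5 of 7 genes were higher (median 0.22), beside 52.6% of all genes. None was 1.5-fold apart on the pseudocount scale. By the ratio of the deposited values 1 was, Rpia, the ribose phosphate isomerase, at 0.628 and 0.123 RPKM (5.12-fold lower), a gene chosen after its values were seen. By that ratio 2786 of the 14538 genes were 1.5-fold lower. Rpe was at 15.2 and 22.5 RPKM and Taldo1 at 293 and 384 RPKM.

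Genes of hexosamine and glycogen metabolism were higher in 8 of 14 (median 0.04), beside 52.6% of all genes. The 2 farthest apart were lower in mutants: Gfpt2, the entry enzyme of hexosamine synthesis, at 12.5 and 1.498 RPKM, and Pygm, a glycogen phosphorylase, at 43.7 and 18.7 RPKM. The TCA cycle, which oxidises what glycolysis delivers, had 8 higher and 9 lower genes and a median of -0.01. Of all genes 52.6% were higher and 47.4% lower. Idh3a, a subunit of isocitrate dehydrogenase, was at 115 and 190 RPKM and Ogdh, of the oxoglutarate dehydrogenase complex, at 22.2 and 37.2 RPKM.

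Partners and regulators of HIF were higher in 9 of 16 with reads (median 0.06), beside 52.6% of all genes. Cited2, which competes with HIF for its coactivators, was at 36.3 and 74.7 RPKM, and Siah2, a ligase that removes EGLN proteins, at 6.71 and 11.99 RPKM. Of 27 other HIF targets with reads, 11 were higher and 16 lower (median -0.07), beside 52.6% and 47.4% of all genes. On the pseudocount scale 3 were 2-fold higher and 1 was 2-fold lower, where 3.67% and 3.47% of all genes were. By the ratio of the deposited values 4 were 2-fold higher and 4 lower, beside 1981 and 1674 of all 14538 genes above the offset. Among those with at least 10 RPKM in 1 group, 7 were higher and 5 lower, beside 52.8% and 47.2% of genes at such levels. Hmox1, haem oxygenase, was at 2.03 and 10.4 RPKM, and Bhlhe40, a transcriptional repressor, at 4.93 and 20.3 RPKM. Both are induced by other signals as well.

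**Figure D4:**
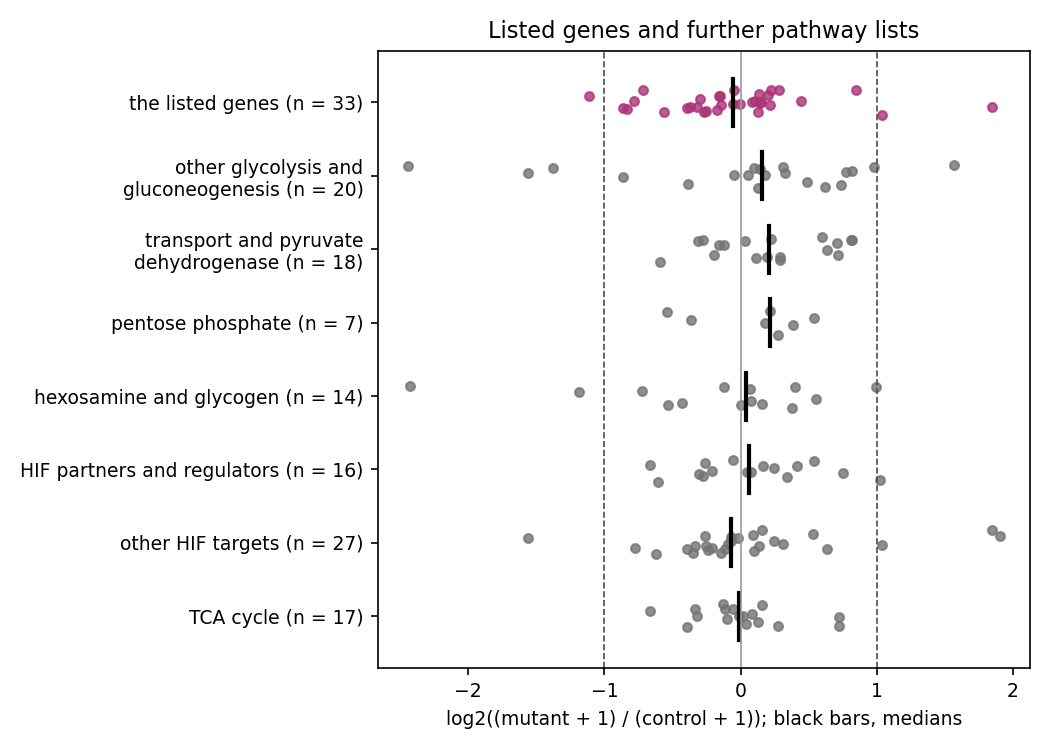
Log2 difference between mutants and controls for each gene with reads of the 33 listed genes (purple) and of 7 further lists (grey); black bars are medians, dashed lines mark 2-fold and vertical scatter is only for legibility. The medians lie between -0.07 for other HIF targets and 0.22 for the pentose phosphate pathway, and single genes lie far on both sides.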

How the data were processed

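Values were the deposited RPKM, with a single column for each group in the file headers (3 control and 4 mutant libraries, paired-end reads of 100 bp). The submitters' processing notes name Picard, edgeR and mm10. The role of each tool, the aligner, the annotation and how libraries were combined: not given in the sources used here. The planned edgeR or limma test was not possible, because values per library were not used here. Genes whose ratio equalled the most frequent one (0.841, relative tolerance 1e-05), 8500 of 23038 (36.9%), were taken as without reads. This step and the counting by fold were tested on simulated data with large changes and little noise. That test checks the code and does not cover variation between libraries. The members and lists were chosen with earlier results of these data known. Named genes were the 33, Mettl3, the 2 genes farthest apart of each further list among those with at least 5 RPKM in 1 group, the fixed additions Arnt, Vhl, Txnip and Slc16a1, and the highest markers; other genes were chosen after their values were seen. Coordinates and promoters come from RefSeq (GRCm38.p6, equivalent to mm10). Copies were sought with blastn 2.17.0 among GENCODE M21 transcripts. A planned comparison of protein sequences was not run. Python 3.11.15 and pandas 2.3.3 were used.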

Additional observations from a re-analysis of the deposited data

How the results depend on the processing

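Without values per library, no replicate could be left out. No paired analysis was possible because the single column of each group carries no replicate number. The median of the 33 genes stayed between -0.14 and -0.05 at all 6 alternatives, and with columns scaled to equal sums 15 were higher and 18 lower. With a pseudocount of 0.1 RPKM, 5 members were at least 1.5-fold higher in place of 3; all genes then gave 1508 higher and 1347 lower at 2-fold and 2926 and 2487 at 1.5-fold. Without a pseudocount, 4 members were 2-fold and 5 were 1.5-fold higher; all genes gave 1981 and 1674 at 2-fold and 3319 and 2786 at 1.5-fold. With a minimum of 10 RPKM in 1 group, chosen after seeing the data, fewer genes were left: 1 member was 2-fold higher and 0 lower, 1 was 1.5-fold higher and 3 lower, and all genes gave 3490 higher and 3117 lower, of which 222 and 163 were 2-fold and 876 and 567 were 1.5-fold apart. Under that minimum the medians of HIF regulators (-0.054) and of other HIF targets (0.094) changed sign, and with columns scaled to equal sums so did that of the TCA cycle (0.0028); the cause was not tested. Of 189 values of single members, 5 moved by over 1.5 times, all with smaller pseudocounts. In log2 these were Pfkfb3 (2.06 and 2.35), Epas1 (3.09 and 6.72) and Vegfa (1.03). For Epas1 the mutant value is set against the control offset, so these values give no fold. None of the members 1.5-fold apart changed sign. Subtracting the offset moved 0 of 42 paralog shares by 1 percentage point or more.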

Other observations

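The first 365 rows of the deposited table are not in the order of gene identifiers, in contrast to the 22673 rows that follow. The 365 genes all lay above the offset and made up 2.51% of such genes, or 1.58% of the whole table. Of the 33 genes, Hk3 (row 22) and Epas1 (row 200) stand among these 365 rows, and so do 8 genes of the further pathway lists: Adpgk, Bhlhe40, Cxcl12, Fbp1, Gfpt2, Pcx, Pygm and Uap1. By the ratio of the deposited values, 159 of the 365 genes were higher and 206 lower in mutants. The sources used here do not say what set these rows apart.

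Pyruvate carboxylase (Pcx), which feeds pyruvate into gluconeogenesis and the TCA cycle, was at 1.99 RPKM in controls against 0.0147 RPKM in mutants. Uap1, the last enzyme of hexosamine synthesis, was at 47.1 and 95.1 RPKM, against 12.5 and 1.498 RPKM for Gfpt2 at the entry of the same pathway, and 4.22 and 2.89 RPKM for its paralog Gfpt1. The liver and muscle forms of glycogen phosphorylase were both lower in mutants, Pygl at 76.2 and 45.7 RPKM and Pygm at 43.7 and 18.7 RPKM, and the brain form Pygb was at 17.7 and 18.7 RPKM. The lactate exporter gene Slc16a3, a HIF target, was at 1.63 and 3.30 RPKM.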
